A study of Mus musculus with 15 samples.

Results

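T-cell receptor gene segments were followed in RNA-seq libraries of leukemic mouse spleen. The members were the genes whose symbols name a variable (V), diversity (D), joining (J) or constant (C) segment of the receptor chains, namely Trav, Traj, Trac, Trbv, Trbd, Trbj, Trbc and the Trd and Trg segments. Of 17029 genes listed in either of the 2 deposited tables, 132 were members, 101 of 16470 in the DMSO table and 130 of 16428 in the ibrutinib table. Both tables listed 99 of them, 2 were in the DMSO table only and 31 in the ibrutinib table only. The members were 36 Trav, 54 Traj, 1 Trac, 20 Trbv, 2 Trbd, 14 Trbj, 2 Trbc, 2 Trdv and 1 Trgv gene, and 9 of them are annotated as pseudogenes. Another 5 receptor genes carry names outside these patterns (Tcrg-C1, Tcrg-C2, Tcrg-C4, Tcrg-V1 and Tcrg-V4) and are not counted as members.

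Eμ-TCL1 mice carry a TCL1 transgene under the B-cell enhancer Eμ. A heterozygous R172H mutation of Trp53 is added in Eμ-TCL1;p53R172H/+ mice. Both genotypes thus share the transgene, and all groups were on a C57Bl/6 background. Cells of leukemic spleens were brought into culture after mechanical disruption and held for 24 h with the vehicle DMSO or with 5 μM ibrutinib, an inhibitor of Bruton tyrosine kinase. The labels call them B-cells, and no sort is stated. The libraries were Eμ-TCL1 in DMSO (replicates 2, 3 and 4, n = 3), Eμ-TCL1;p53R172H/+ in DMSO (replicates 1 to 5, n = 5), Eμ-TCL1 in ibrutinib (replicates 1, 3 and 4, n = 3) and Eμ-TCL1;p53R172H/+ in ibrutinib (replicates 1, 3, 4 and 5, n = 4). The ages of the mice are not given in the sources used here. T-cells of the spleen belong to the same animal and carry the mutant allele too in Eμ-TCL1;p53R172H/+ mice.

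Each T-cell builds its receptor by V(D)J recombination, which joins a V, in the beta chain a D, and a J segment in the DNA. Splicing of the RNA then links the joined segments to a C segment. In the alpha locus the DNA between the joined V and J is removed, and segments downstream of the J used remain. The beta locus holds a pair of D-J-C clusters, each with its own constant gene, Trbc1 or Trbc2. A mixed T-cell population uses many V genes, whereas the progeny of a single T-cell share a V and a J. B-cells rearrange immunoglobulin genes and do not assemble a complete T-cell receptor.

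Some libraries stood apart before any receptor gene was considered. The sum over variable genes of the immunoglobulin heavy chain was 36.6 and 40.3 for Eμ-TCL1;p53R172H/+ DMSO replicates 1 and 2, 20.2 in ibrutinib replicate 1 and 178.1 in ibrutinib replicate 3 of that genotype, against 431.5 to 1152.2 in the other 11 libraries. Values are CPM, read counts relative to library size, scaled by the authors and rounded to 0.1, and column sums ran from 855661 to 1243999 in DMSO and from 756625 to 1359650 in ibrutinib. How deeply each library was sequenced is unknown, so no counting interval can be given. The summed 10 B-cell markers were 277.5, 273.1 and 67.1 in the first 3 of these libraries. They were 576.7 and 459.1 in Eμ-TCL1 DMSO replicate 2 and ibrutinib replicate 1, where 8 myeloid markers summed to 28996.6 and 20432.0, and 551.8 to 6209.1 in the remaining 10. The 3 libraries with the lowest heavy-chain sums are called the low-immunoglobulin libraries here. Tests of receptor genes are given with and without them, whereas the lists of other genes were fitted with all libraries only. The labels do not say which numbers belong to 1 mouse. Xist and Ddx3y were 1491.3 and 0.1 in Eμ-TCL1;p53R172H/+ DMSO replicate 3 but 1.0 and 82.1 in ibrutinib replicate 3. In every Eμ-TCL1 library Xist was at least 868.7 and Ddx3y 0.0. In Eμ-TCL1;p53R172H/+ DMSO replicates 1, 2 and 4 and ibrutinib replicates 1 and 4, Xist was at most 1.2 and Ddx3y at least 75.1. Replicate 5 of that genotype had Xist of 837.6 and 1052.3. Sex, which these genes mark, thus cannot be fully told apart from genotype in any genotype comparison here. In bulk RNA, fewer cells of a type and less RNA per cell cannot be told apart.

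The following V and J segments carry the patterns described below. They were read from the GENCODE M21 transcripts (GRCm38, the build of the files), 5′ to 3′. For V genes the last 90 bases are shown, with the codon of the conserved cysteine that ends framework 3 in capitals. It was located as the last 3 bases of the motif TANNNNTGN, found in the last 45 bases of 159 of 170 annotated V transcripts and of 12 on the opposite strand.
Trbv17 (chr6:41163062-41163556, plus strand): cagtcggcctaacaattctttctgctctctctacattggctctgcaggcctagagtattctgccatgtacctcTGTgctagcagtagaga
Trbv5 (chr6:41062332-41062803, plus strand): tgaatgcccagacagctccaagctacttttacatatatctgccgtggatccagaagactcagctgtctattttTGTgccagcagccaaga
Trbv12-2 (chr6:41118851-41119364, plus strand): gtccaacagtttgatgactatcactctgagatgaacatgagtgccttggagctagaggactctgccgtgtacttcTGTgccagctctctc
Trav9-4 (chr14:53676141-53676630, plus strand): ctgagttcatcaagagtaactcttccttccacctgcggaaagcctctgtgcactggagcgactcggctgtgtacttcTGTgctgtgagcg
Trav14-1 (chr14:53554022-53554558, plus strand): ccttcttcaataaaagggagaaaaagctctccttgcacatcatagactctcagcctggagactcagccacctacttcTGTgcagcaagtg
Aligned over the transcripts, Trbv17 was 58.5% identical to its nearest beta V gene (Trbv4), Trbv5 61.9% (Trbv2) and Trbv12-2 88.3% (Trbv12-1). The alpha genes have closer copies, since Trav9-4 was 97.2% identical to Trav9n-4 and Trav14-1 95.2% identical to Trav14d-1, so reads of single Trav genes may be shared or lost in counting.
For J genes the whole segment is shown, with the motif TTNGGNNNNGGN, which covers the conserved glycine motif of J regions, in capitals. It was found in 59 of 80 annotated J transcripts (73.8%) and in 0 on the opposite strand.
Traj44 (chr14:54173690-54173750, plus strand): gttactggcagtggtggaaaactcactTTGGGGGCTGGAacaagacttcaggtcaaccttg
Traj43 (chr14:54174742-54174798, plus strand): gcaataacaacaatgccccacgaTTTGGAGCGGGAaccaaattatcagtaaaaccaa
Trbj1-5 (chr6:41535084-41535133, plus strand): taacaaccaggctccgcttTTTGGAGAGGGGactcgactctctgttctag

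The constant genes set the overall level of receptor RNA. Trac, the constant gene of the alpha chain (chromosome 14 from 54220521 to 54224206), was 10.4, 4.8 and 18.7 in Eμ-TCL1 DMSO replicates 2, 3 and 4. It was 131.2, 170.3, 8.7, 7.0 and 7.7 in Eμ-TCL1;p53R172H/+ DMSO replicates 1 to 5. The low-immunoglobulin replicates 1 and 2 were high and the other 3 lay within the Eμ-TCL1 range. In ibrutinib, Trac was 8.2, 5.5 and 14.0 in Eμ-TCL1 replicates 1, 3 and 4 and 76.9, 71.3, 37.2 and 60.4 in Eμ-TCL1;p53R172H/+ replicates 1, 3, 4 and 5, with no overlap. Trbc1 was 7.3, 2.2 and 9.1 in Eμ-TCL1 and 339.2, 271.9, 7.9, 8.8 and 7.8 in Eμ-TCL1;p53R172H/+ in DMSO. In ibrutinib it was 5.5, 2.4 and 11 against 234.2, 54.7, 24.7 and 34.2. Replicate 1 of Eμ-TCL1;p53R172H/+ stood far above the rest, and the genotypes did not overlap. Trbc2 was 18.4, 10.3 and 37.0 against 96.2, 73.8, 17.2, 12.1 and 17.1 in DMSO, and 12.6, 10.9 and 43 against 78.6, 128.6, 63.9 and 109.1 in ibrutinib. Here the highest ibrutinib library was replicate 3, not replicate 1.

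**Figure D1:**
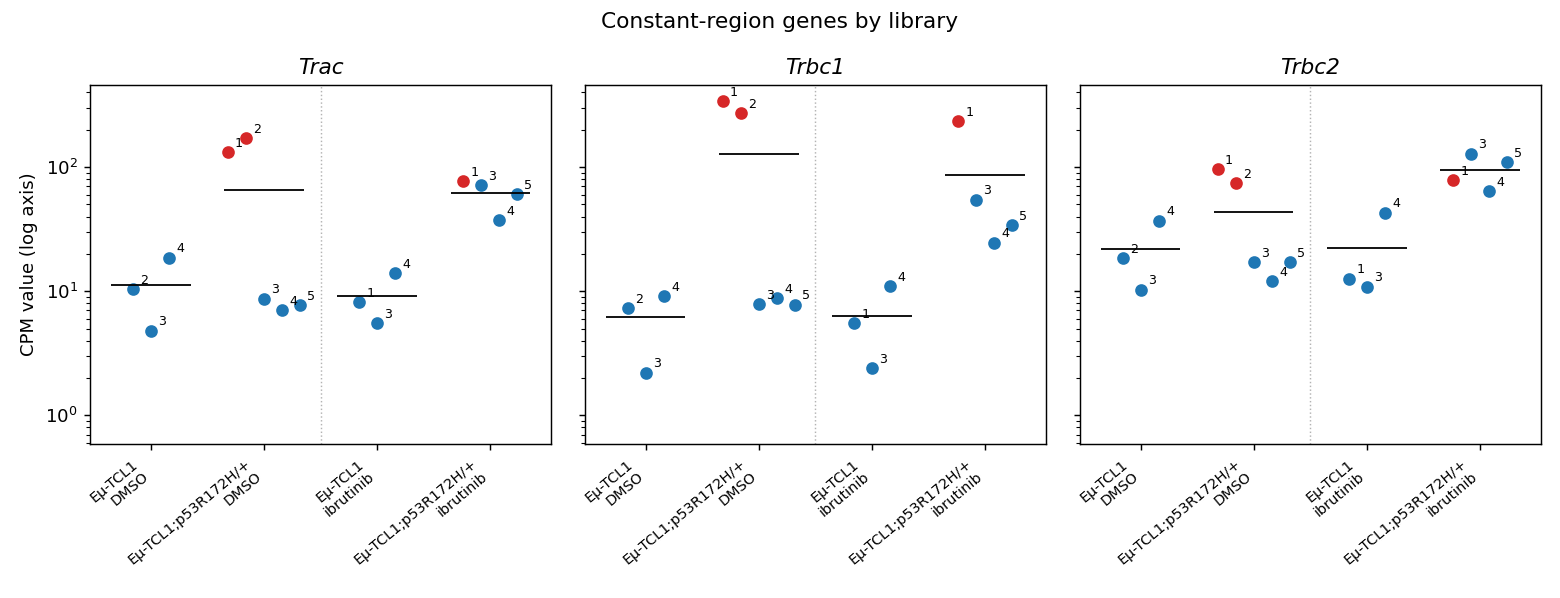
CPM values of Trac, Trbc1 and Trbc2 by library on a log axis, with replicate numbers beside the points, group means as lines and the 3 low-immunoglobulin libraries in red. In DMSO only the red points of Eμ-TCL1;p53R172H/+ lie above Eμ-TCL1, and in ibrutinib all 4 Eμ-TCL1;p53R172H/+ libraries do; the tables were scaled separately.

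In DMSO the constant genes did not pass a test between genotypes. For Trac the Eμ-TCL1 mean of 11.3 ± 6.99 (SD, n = 3) stood against 65.0 ± 79.5 (SD, n = 5) for Eμ-TCL1;p53R172H/+ (two-sided exact permutation test, p = 0.536, adjusted p = 0.536). For Trbc1 the exact permutation p was 0.179 (adjusted p = 0.268) and for Trbc2 0.50 (adjusted p = 0.536). Without the low-immunoglobulin libraries the mean differences of Trac and Trbc2 turned negative, at -3.50 and -6.43, and that of Trbc1 was 1.97, against 121 with them. In ibrutinib, Trac was 9.23 ± 4.34 (SD, n = 3) and 61.5 ± 17.6 (SD, n = 4), Trbc1 6.30 ± 4.36 and 87.0 ± 99.0, and Trbc2 22.2 ± 18.1 and 95.1 ± 29.2. All 3 genes reached p = 0.0571 in the exact permutation test (adjusted p = 0.114), the smallest p that this test can give with 3 against 4 libraries. That p lies above the threshold of 0.05. Adjusted over both treatments, this test could pass no constant gene in either, so its adjusted p decides nothing. Without replicate 1 of Eμ-TCL1;p53R172H/+ the mean differences were 47.1, 31.6 and 78.4, against 52.2, 80.7 and 72.9 with it. When two-sided p was instead taken as the share of splits with an equal or larger absolute difference, a form tried after the values were seen, the exact permutation p was 0.0571, 0.114 and 0.0286 for Trac, Trbc1 and Trbc2, with adjusted p of 0.171, 0.229 and 0.171.

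Ratios within a library do not depend on the scaling of its table. The summed constant genes per summed CD3 chains (Cd3d, Cd3e, Cd3g and Cd247, the signaling partners of the receptor) lay between 0.435 and 0.845 in all 15 libraries. Per summed B-cell markers, in contrast, they ranged from 0.0028 in Eμ-TCL1 DMSO replicate 3 to 5.81 in Eμ-TCL1;p53R172H/+ ibrutinib replicate 1. The ratio was 0.0092, 0.0061 and 0.0090 in Eμ-TCL1;p53R172H/+ DMSO replicates 3, 4 and 5 and 0.461, 0.0823 and 0.147 in ibrutinib replicates 3, 4 and 5. Every one of these ibrutinib libraries lay above every one of these DMSO libraries. The low-immunoglobulin DMSO replicates 1 and 2 of that genotype lay above these ibrutinib libraries, at 2.04 and 1.89. In Eμ-TCL1 the ratio was 0.0028 and 0.0138 in DMSO replicates 3 and 4 and 0.0054 and 0.0251 in ibrutinib replicates 3 and 4. Eμ-TCL1 DMSO replicate 2 had 0.0626 and ibrutinib replicate 1 had 0.0573. The B-cell marker sum itself was 3632.5 to 4588.0 in Eμ-TCL1;p53R172H/+ DMSO replicates 3, 4 and 5. It was 551.8 to 1529.0 in ibrutinib replicates 3, 4 and 5 of that genotype, and its part in the ratio was not tested.

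Single V genes dominated 5 of the 15 libraries. The share of a V gene is its percent of the summed V values of its chain in a library. It is described without a test, for libraries whose V sum was at least 20. In Eμ-TCL1;p53R172H/+ DMSO replicate 1, Trbv17 had a value of 372.5, or 85.8% of the Trbv sum, followed by Trbv5 with 11.9%. In DMSO replicate 2 of that genotype the shares were 84.7% (378.9) and 12.9%, and in ibrutinib replicate 1 they were 84.4% (245.7) and 12.9%. The 3 low-immunoglobulin libraries thus held the same pair of Trbv genes in nearly the same proportion. Eμ-TCL1 replicate 4 held another gene, Trbv12-2, with 92.9% (23.6) in DMSO and 92.0% (25.2) in ibrutinib. Its Trbv17 was 0.1 in both treatments.

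**Figure D2:**
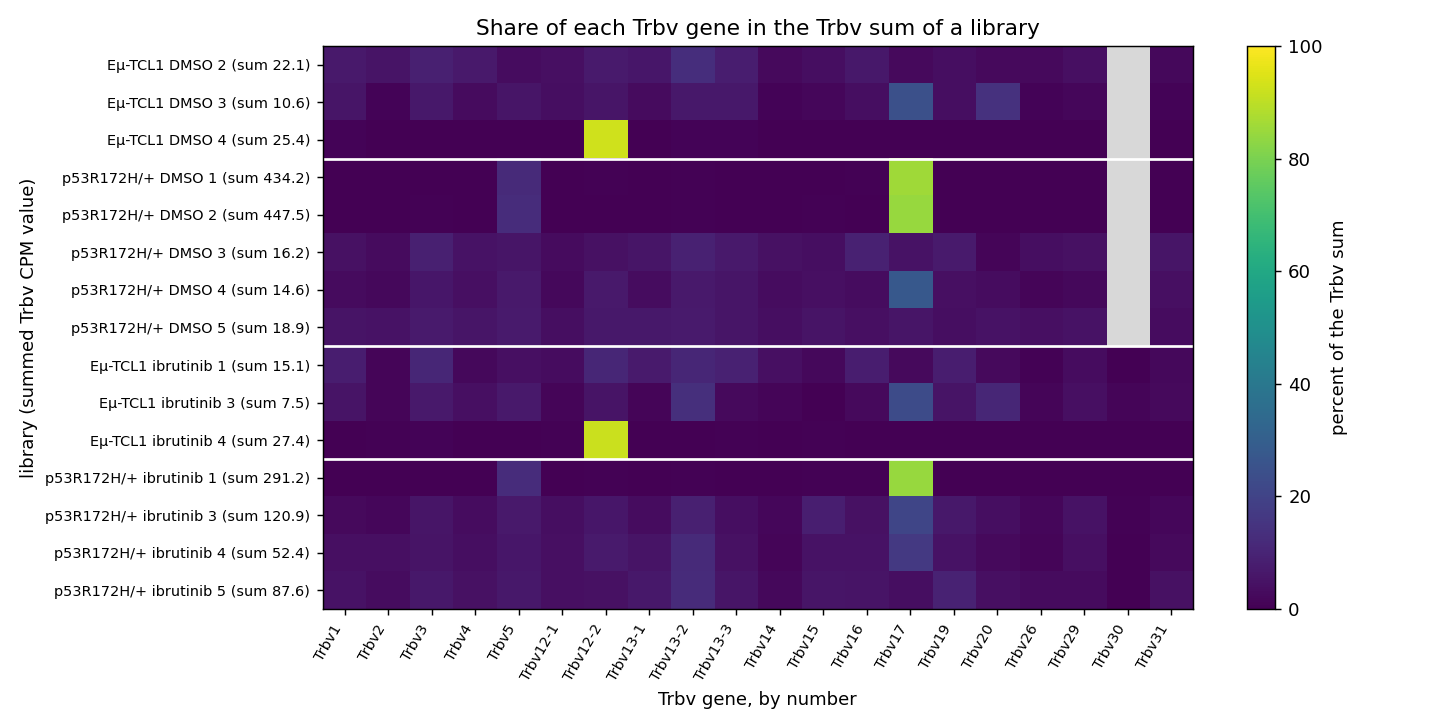
Percent of the summed Trbv values taken by each Trbv gene (columns) in each library (rows, with the Trbv sum); grey marks a gene not listed in the DMSO table. Trbv17 takes 84.4% to 85.8% in 3 Eμ-TCL1;p53R172H/+ libraries and Trbv12-2 takes 92.0% and 92.9% in Eμ-TCL1 replicate 4, while the other 10 rows are spread over many genes.

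In the other libraries above the minimum, no Trbv gene held more than 21.01%. That share was Trbv17 in Eμ-TCL1;p53R172H/+ ibrutinib replicate 3 (25.4), and Trbv17 also led ibrutinib replicate 4 with 16.6% (8.7). Trbv13-2 led ibrutinib replicate 5 with 12.3% (10.8) and Eμ-TCL1 DMSO replicate 2 with 13.1% (2.9). The inverse Simpson index, which counts equally used genes that would give the same evenness, was 1.16 to 1.37 in the 5 libraries led by Trbv17 or Trbv12-2 at over 80% and 9.11 to 17.92 in the other 10. Below the minimum, Trbv17 held 27.4% of a Trbv sum of 14.6 in Eμ-TCL1;p53R172H/+ DMSO replicate 4, and 24.5% and 22.7% of sums of 10.6 and 7.5 in Eμ-TCL1 replicate 3 in DMSO and ibrutinib. It held 2.65% to 5.82% in Eμ-TCL1 DMSO replicate 2 and ibrutinib replicate 1 and in Eμ-TCL1;p53R172H/+ DMSO replicates 3 and 5 and ibrutinib replicate 5. With values near the rounding step of 0.1, shares in the smallest sums are coarse.

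The likeness of Trbv use was summarized as the cosine over the 19 Trbv genes in both tables, as a description. It was 1.0 among the 3 low-immunoglobulin libraries and 1.0 between the DMSO and ibrutinib libraries of Eμ-TCL1 replicate 4, whose next most alike library reached 0.405. Eμ-TCL1 replicate 3 was most alike between its DMSO and ibrutinib libraries, at 0.953. Eμ-TCL1;p53R172H/+ DMSO replicate 3 was most like ibrutinib replicate 5, at 0.950, and reached 0.76 with ibrutinib replicate 3. Between Eμ-TCL1;p53R172H/+ DMSO replicates 1 and 2, Trac, Cd3e (113.5 and 282.9) and Traj21 (8.9 and 20.2) differed. Trbv17 (372.5 and 378.9) and Ddx3y (177.0 and 177.3) were close. The labels do not say whether these libraries come from 1 mouse, and how they came to share their Trbv use was not tested.

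Alpha V genes gave the same grouping of libraries at lower values. Trav9-4 was 17.3, 10.9 and 11.5 in Eμ-TCL1;p53R172H/+ DMSO replicates 1 and 2 and ibrutinib replicate 1, or 41.0%, 24.5% and 45.5% of the Trav sum. Trav12-3 was 9.2, 13.4 and 5.5 there, and it was the leading Trav gene of DMSO replicate 2 with 30.1%. In every other library Trav9-4 was at most 1.9. Trav14-1 was 11.9 and 8.5 in Eμ-TCL1 replicate 4 in DMSO and ibrutinib, 96.0% and 94.4% of Trav sums that lay under the minimum of 20. In Eμ-TCL1;p53R172H/+ ibrutinib replicate 3 the leading gene, Trav19, held 7.77% (2.3). Over the Trav genes of both tables only, a set chosen after the values were seen, Trav9-4 led that library with 23.75%. The DMSO table lists 9 Trav genes and the one for ibrutinib lists 34, so Trav shares are not over the same genes in both.

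The alpha V genes of ibrutinib replicate 1 of Eμ-TCL1;p53R172H/+ lay close together on the locus. The 34 listed Trav genes were ordered on chromosome 14, and 7 neighbors in that order, from Trav13-1 to Trav9-4 (53545014 to 53676630), had values of 0.2 to 11.5 and a sum of 25.0. The 18 listed genes 5′ of Trav13-1 and the 9 listed genes 3′ of Trav9-4 were at 0 or 0.1. In Eμ-TCL1 ibrutinib replicate 4 these 18 and 9 genes were at 0 or 0.1 too, and the 7 between them summed to 8.7, of which Trav14-1 made up 8.5. All 18 upstream genes and 8 of the 9 downstream genes were listed in ibrutinib only, whereas 6 of the 7 between them were in both tables. Which genes are listed depends on the libraries that reached the authors' minimum, so these values are a description of listed genes, and the bounds were chosen after the values were seen.

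The J genes of the alpha chain showed a boundary. In Eμ-TCL1;p53R172H/+ DMSO replicates 1 and 2 and ibrutinib replicate 1, the 12 listed genes from Traj56 to Traj44 summed to 0.0, 0.1 and 0.0. The 42 listed genes from Traj43 to Traj1, nearest to Trac, summed to 200.6, 253.1 and 102.8, and none of them was at 0. The step lies between Traj44 and Traj43, printed above, and was located after the values were seen. In Eμ-TCL1 replicate 4 the upstream 12 genes took 34.0% of the Traj sum in DMSO (10.8) and 32.9% in ibrutinib (7.5), and Traj56 was the highest Traj gene in both, at 1.4 and 1.0. In the other 10 libraries the upstream genes took 4.0% to 10.6%. The highest Traj gene of the low-immunoglobulin libraries was Traj22 (9.4), Traj21 (20.2) and Traj15 (4.7).

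**Figure D3:**
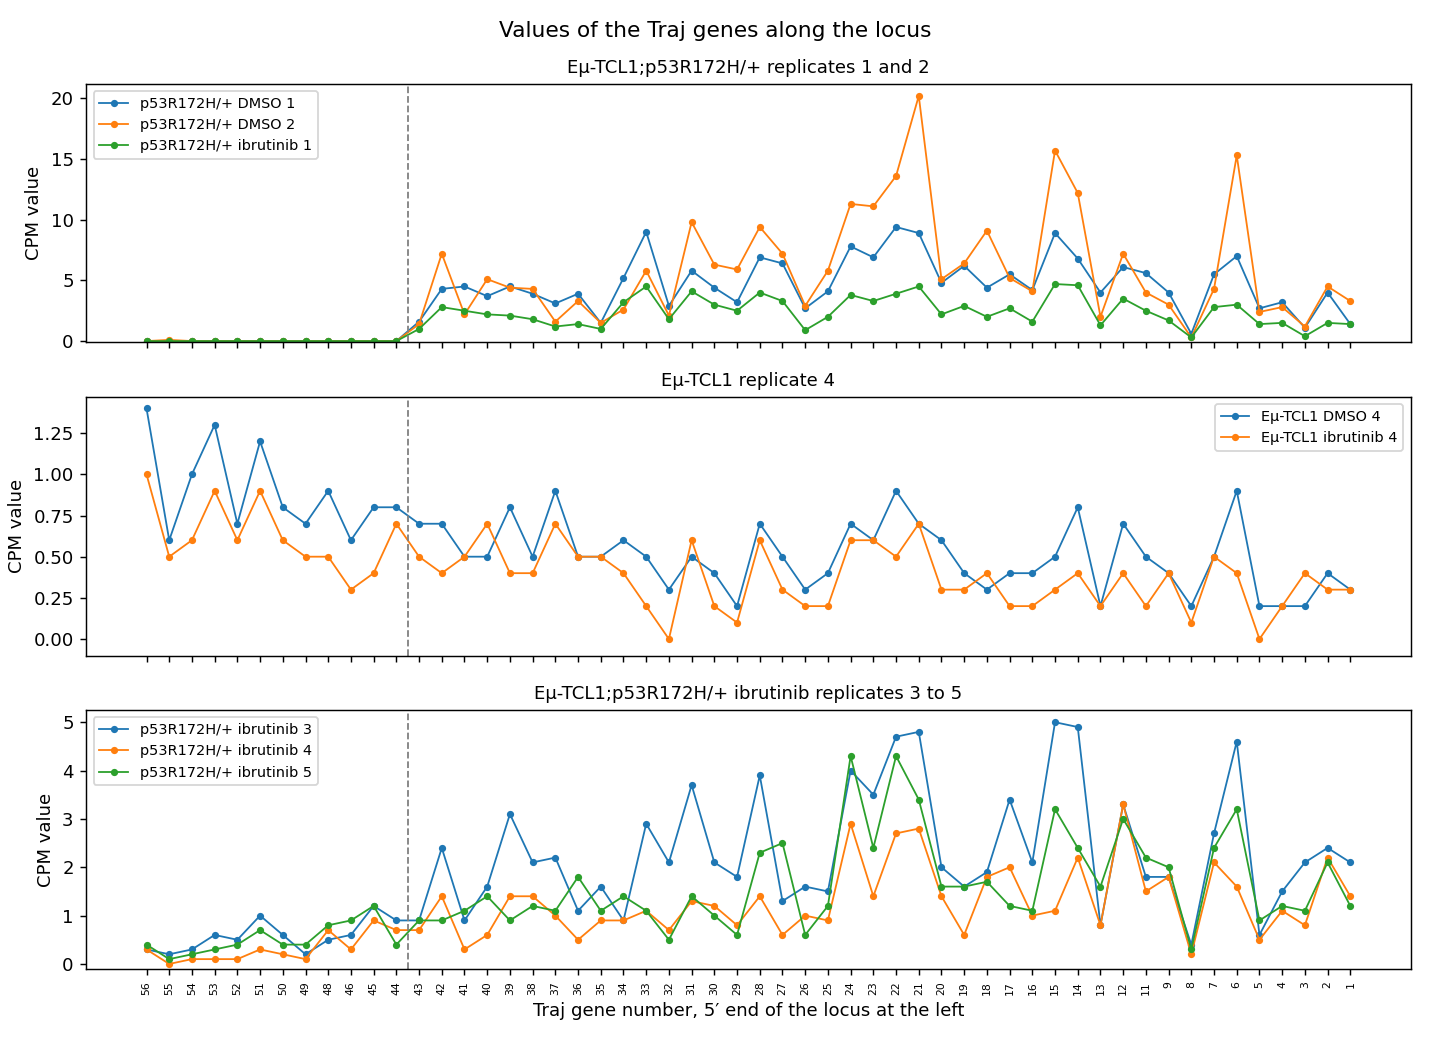
CPM values of the 54 Traj genes in order along the locus, 5′ end at the left, with the scale of each panel its own; the dashed line separates Traj44 from Traj43. In the upper panel values are 0 or 0.1 to the left of the line, in the middle panel the leftmost gene is the highest, and in the lower panel values run on both sides.

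In the beta locus the low-immunoglobulin libraries had more of the J1 and C1 segments. Genes of the Trbj1 cluster took 91.1%, 91.8% and 90.6% of the Trbj sum in them and 42.9% to 68.6% in the other 12 libraries. Trbj1-5 was 27.0, 13.4 and 16.7 there and at most 4.8 elsewhere, and it or its neighbor Trbj1-6 was the highest Trbj gene in each. Trbd1, a diversity segment, was 0.0, 0.1 and 0.0, and Trbd2 was 2.3, 2.5 and 1.8. Trbc1 made up 77.9%, 78.7% and 74.9% of Trbc1 plus Trbc2 in these libraries and 17.6% to 42.1% in the others. The transcripts of both constant genes are 95.3% identical over 512 aligned positions, so some reads may be assigned to either.

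**Figure D4:**
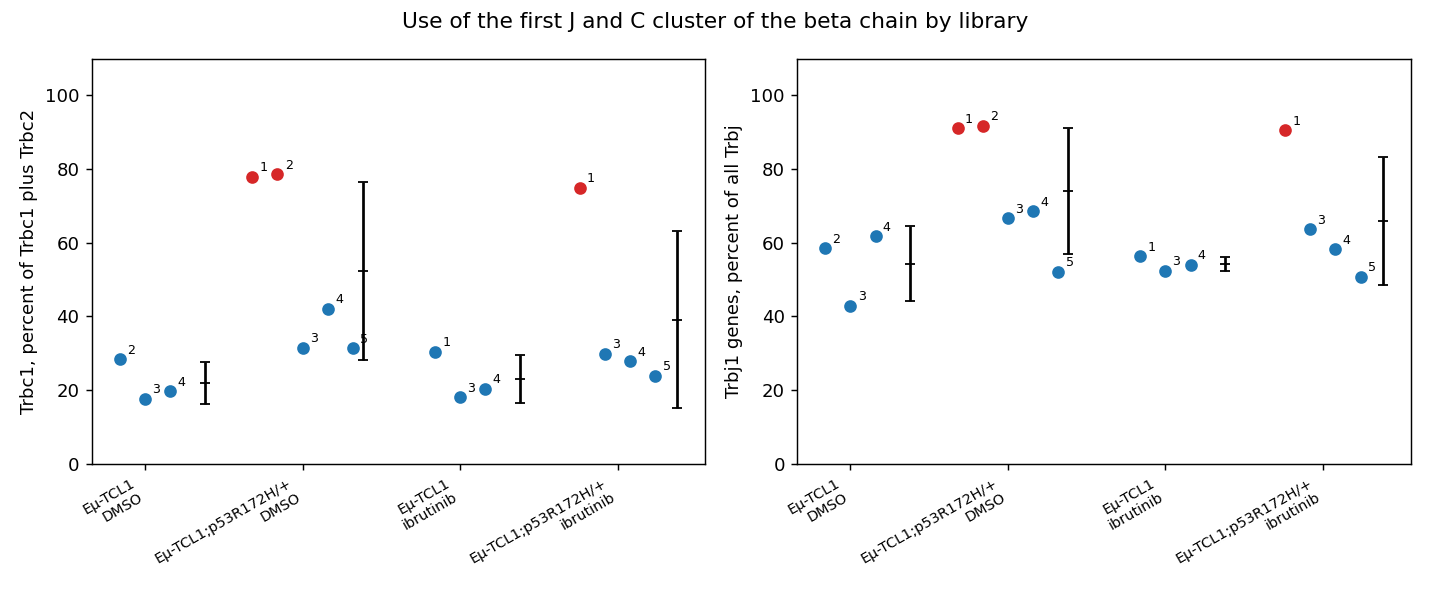
Percent of Trbc1 in Trbc1 plus Trbc2 (left) and of Trbj1 genes in all Trbj (right) by library, with replicate numbers, the mean and SD of each group in black and the low-immunoglobulin libraries in red. The red points lie at 74.9% to 78.7% and at 90.6% to 91.8%, above all other libraries.

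In DMSO the Trbc1 share averaged 21.9% ± 5.72 (SD, n = 3) for Eμ-TCL1 against 52.3% ± 24.1 (SD, n = 5) for Eμ-TCL1;p53R172H/+, with no overlap (two-sided exact permutation test, p = 0.0357, adjusted over 4 comparisons 0.143). By the absolute difference the exact permutation p was 0.0893 (adjusted p = 0.357). In ibrutinib it was 22.9% ± 6.56 (SD, n = 3) and 39.1% ± 24.0 (SD, n = 4), with an exact permutation p of 0.229. Between treatments the share differed by 1.02 percentage points in Eμ-TCL1 and by -13.2 in Eμ-TCL1;p53R172H/+ (ibrutinib minus DMSO; exact permutation p = 0.600 and 0.254), with the libraries taken as independent. Within same-numbered libraries it went from 17.6% to 18.05% and from 19.74% to 20.37% in Eμ-TCL1 replicates 3 and 4, a mean difference of 0.54 (2 of 2 higher, exact sign-flip permutation p = 0.50). In Eμ-TCL1;p53R172H/+ it went from 77.91% to 74.87%, 31.47% to 29.84%, 42.11% to 27.88% and 31.33% to 23.87% in replicates 1, 3, 4 and 5, a mean difference of -6.59 (4 of 4 lower, exact sign-flip permutation p = 0.125). Both are the smallest p that so few pairs can give. Replicate 3 of this genotype differed in Xist and Ddx3y between treatments, so its libraries do not match in sex and are no true pair. The mean and p of Eμ-TCL1;p53R172H/+ include it. Without the low-immunoglobulin libraries the genotype differences were 13.1 points in DMSO and 4.26 in ibrutinib, against 30.4 and 16.2 with them, and the treatment difference in Eμ-TCL1;p53R172H/+ was -7.77. No comparison passed after adjustment.

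Listed gamma chain genes were high in the low-immunoglobulin libraries. Trgv2, the only Trg member listed, was 26.2, 39.6 and 12.2 in them and at most 0.6 in the other 12. Of the receptor genes named outside the patterns, the gamma constant gene Tcrg-C1 was 19.8, 30.9 and 11.8, against at most 1.7 elsewhere. Trdc, the delta constant gene, was not listed, and the delta genes Trdv1 and Trdv2-2, listed in ibrutinib only, were at most 0.7.

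The coreceptors separated the same libraries. Cd8a and Cd8b1 encode the coreceptor of cytotoxic T-cells and Cd4 that of helper T-cells. Cd8a was 266.2, 298.1 and 134.9 and Cd4 2.0, 4.4 and 1.5 in the low-immunoglobulin libraries. The ratio of Cd8a to Cd4 was 133.1, 67.8 and 89.9 in them, 26.5 and 14.7 in Eμ-TCL1 replicate 4 in DMSO and ibrutinib, and 0.77 to 2.5 in the other 10 libraries. The 5 libraries dominated by a single Trbv gene, Trbv17 or Trbv12-2, were therefore those with the highest ratio. Libraries led by the same gene may come from 1 mouse, so they are not taken as separate cases. Zbtb7b, a transcription factor of helper T-cells that B-cells also express, was 3.6, 5.7 and 1.7 in the low-immunoglobulin libraries and 28.7 to 111.9 in the others. Rag1, a subunit of the recombinase, was 23.8 in Eμ-TCL1 DMSO replicate 2 and 19.8 in ibrutinib replicate 1 and at most 2.5 elsewhere, Rag2 was at most 1.7, and Dntt, which adds bases at the joints, was at most 3.1. Ptcra, the pre-TCR alpha chain, was not listed. Among NK-cell markers, Ncr1 was 0.0 in each low-immunoglobulin library, but it was at most 0.9 in any library. Eomes (297.3, 377.5 and 139.7) and Prf1 (166.4, 153.2 and 90.2) were high in the low-immunoglobulin libraries, against at most 48.6 and 24.6 in the others. The summed 8 NK-cell markers were 899.9, 975.0 and 469.4 in them and 14.9 to 175.6 elsewhere.

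Between genotypes in DMSO, limma, run on log2(value + 1), called 0 of 101 members at an adjusted p under 0.05, where it called 0.0121% of all 16470 genes. At an unadjusted p under 0.05 it found 0 members, against 8.17% of all genes. The log2 difference, Eμ-TCL1;p53R172H/+ minus Eμ-TCL1, was above 0 in 79 members (53.3% of all genes) and had a median of 0.62 (0.04 over all genes). In 2 members, Trbv5 and Trbj1-2, all Eμ-TCL1;p53R172H/+ libraries lay above all Eμ-TCL1 libraries, against 3.52% of all genes. The members with the lowest p were Traj51 (log2 difference -0.49, standard error 0.23, adjusted p = 0.629) and Traj48 (-0.40) among the lower, and Trbv15 (0.60, standard error 0.28, adjusted p = 0.632) and Trbj1-2 (1.61, adjusted p = 0.645) among the higher. Traj51 reached 1.2 only in Eμ-TCL1 replicate 4 and stayed at 0.2 or less in the other DMSO libraries. Trbv17 had the largest log2 difference, 3.38 with a standard error of 2.02, which rests on replicates 1 and 2. Without them the median of the members was -0.09 (-0.02 over all genes), and 3 members had all Eμ-TCL1;p53R172H/+ libraries higher and 1 lower, against 11.4% and 7.94% of all genes.

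In ibrutinib most receptor genes had higher values in Eμ-TCL1;p53R172H/+, though none passed the adjusted test. Limma called 0 of 130 members and 0% of all 16428 genes at an adjusted p under 0.05. At an unadjusted p under 0.05 there were 67 members (51.5%), all higher in Eμ-TCL1;p53R172H/+, against 5.69% of all genes higher and 12% in either direction. The genotypes did not overlap in 57 members, all higher, against 6.68% of all genes higher and 5.97% lower. All 57 were among the 99 members of both tables and 0 among the 31 listed in ibrutinib only. A gene is listed only where it reached the authors' minimum, so these counts do not cover all receptor genes and are given as a description. The 31 listed in ibrutinib only, apart from Trbj2-5, were at most 0.3 in the Eμ-TCL1 ibrutinib libraries. Their listing thus rests largely on Eμ-TCL1;p53R172H/+ libraries and favors a positive difference, so their direction is not evidence of one. By segment, 35 of 54 Traj, 10 of 14 Trbj, 5 of 20 Trbv, 4 of 34 Trav, Trac and both Trbc genes had no overlap. The 5 Trbv genes were Trbv5, Trbv13-2, Trbv15, Trbv16 and Trbv17.

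**Figure D5:**
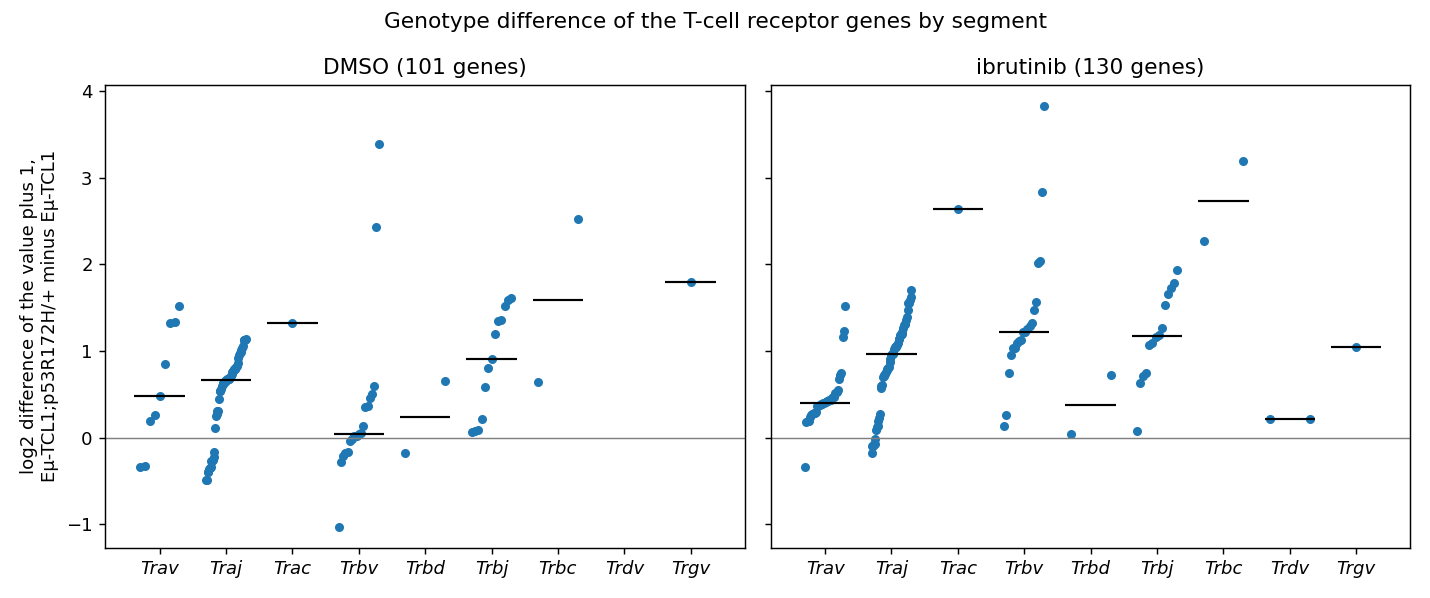
Log2 difference of the value plus 1 between genotypes for each listed receptor gene by segment, in DMSO (101 genes) and ibrutinib (130 genes), with the median of each segment as a line. In ibrutinib 123 of 130 genes lie above 0, and in DMSO 79 of 101 do. The 130 include 31 genes listed in ibrutinib only, whose listing favors a positive difference.

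The members with the lowest p in ibrutinib were J genes and Trac. Traj24 was 0.6, 0.2 and 0.6 in Eμ-TCL1 and 3.8, 4.0, 2.9 and 4.3 in Eμ-TCL1;p53R172H/+ (log2 difference 1.70, standard error 0.22, limma adjusted p = 0.157). Traj2 was 0.3, 0.2 and 0.3 against 1.5, 2.4, 2.2 and 2.1 (1.26, standard error 0.19, adjusted p = 0.165). Trac differed by 2.64 (standard error 0.36, adjusted p = 0.160) and Traj12 by 1.62 (standard error 0.19, adjusted p = 0.121). All 4 Eμ-TCL1;p53R172H/+ libraries showed these differences. Among the members lower in Eμ-TCL1;p53R172H/+, the lowest p belonged to Traj55 (-0.18, adjusted p = 0.651) and Traj52 (-0.10, adjusted p = 0.848). The log2 difference was above 0 in 123 members (45.6% of all genes), with a median of 0.81 (-0.05 over all genes). This count and median include the 31 members listed in ibrutinib only, whose listing favors a positive difference. Without Eμ-TCL1;p53R172H/+ ibrutinib replicate 1 the median was 0.82. In that fit 98 members had an unadjusted p under 0.05, all higher, against 4.97% of all genes higher and 9.74% in either direction. Of these 98, 76 were among the 99 members of both tables, and 0 passed the adjusted threshold. In that subset 98 members did not overlap, all higher, against 8.19% of all genes, of which 25 were among the 31 listed in ibrutinib only. The Eμ-TCL1;p53R172H/+ ibrutinib libraries other than replicate 1 had B-cell marker sums of 551.8 to 1529.0. Eμ-TCL1 ibrutinib replicates 3 and 4 had higher sums, 3492.1 and 2713.0. Eμ-TCL1 ibrutinib replicate 1 had a lower sum, 459.1, with a Trac value of 8.2. The part of these sums in the receptor values was not tested.

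Genes that work with the receptor were examined from lists, none of which held a gene past the adjusted threshold. Over all genes, limma gave an unadjusted p under 0.05 for 12% in ibrutinib (5.69% higher and 6.32% lower). In DMSO it did so for 8.17% (3.52% higher and 4.65% lower). Of the 7 CD3 chains and coreceptors, 0 passed the adjusted threshold in either treatment. In ibrutinib 6 of them had an unadjusted p under 0.05, all higher, led by Cd3e (log2 difference 2.19, standard error 0.39, adjusted p = 0.165) and Cd3d (2.38, standard error 0.57, adjusted p = 0.235), while Cd4 had 0.82 (adjusted p = 0.739). Of 21 receptor signaling genes, 13 had an unadjusted p under 0.05, all higher, led by the costimulatory receptors Icos (1.60, adjusted p = 0.162) and Cd28 (2.28, adjusted p = 0.165). Of 10 T-lineage transcription factors, 6 had a log2 difference above 0 and 5 an unadjusted p under 0.05, led by Lef1 (2.62) and Tcf7 (2.42, both adjusted p = 0.165). In DMSO 0 of the CD3 and signaling genes had an unadjusted p under 0.05, with log2 differences of 1.81 for Cd3e and 1.66 for the kinase Lck. Both were highest in the low-immunoglobulin replicates 1 and 2. Cd3e was 113.5 and 282.9 there and 6.0, 8.2 and 9.3 in replicates 3, 4 and 5, against 10.2, 2.8 and 12.8 in Eμ-TCL1. Of the 10 transcription factors, 2 had an unadjusted p under 0.05 in DMSO, Lef1 (2.47) and Zbtb7b (-2.32). Of 9 listed recombination genes, 3 had a log2 difference above 0 in ibrutinib (median -0.26) and 1 an unadjusted p under 0.05, Xrcc5 (0.74, adjusted p = 0.400), a subunit of the DNA end-joining complex. Of the marker lists of other cells, 1 of 10 B-cell, 1 of 8 NK-cell, 4 of 8 myeloid and 0 of 7 erythroid genes had an unadjusted p under 0.05 in DMSO, and 1, 1, 1 and 0 in ibrutinib. Counts of 1 in a list, also for the recombination genes, lie near the share over all genes. The lowest p values were those of Fcer2a (-2.69 in DMSO and -1.56 in ibrutinib), Gzma (0.99) in DMSO and Klrd1 (2.67) in ibrutinib, Adgre1 (-3.62 and -2.87) and Slc4a1 (-3.17 and -3.10), with none past the adjusted threshold.

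Whether the genotype difference itself differed between treatments was tested as an interaction over the 99 members in both tables. The limma fit called 0 members, and 0% of 15869 genes. At an unadjusted p under 0.05 there were 5 members, all positive, against 0.523% of all genes (0.176% positive and 0.347% negative), namely Trbv15, Traj45, Trbv12-1, Trbv4 and Trbv13-2, with log2 interactions of 1.44, 0.87, 1.42, 1.30 and 1.56 (adjusted p = 1 for each). The interaction was above 0 in 91 members, against 40.9% of all genes. Trbv13-2 was 2.9, 0.7 and 0.2 against 2.7, 2.5, 1.5, 1.0 and 1.4 in DMSO, and 1.6, 1.0 and 0.1 against 1.8, 10.4, 6.3 and 10.8 in ibrutinib. Its high values lay in Eμ-TCL1;p53R172H/+ ibrutinib replicates 3, 4 and 5, and replicate 1 lay just above the Eμ-TCL1 range. Without the low-immunoglobulin libraries 74 of the 99 members had an unadjusted p under 0.05, all positive, against 3.63% of all genes positive and 7.22% in either direction. The median interaction of the 99 was 1.04 (-0.05 over all genes), and 0 passed the adjusted threshold. Since the tables were scaled separately and DMSO and ibrutinib libraries of a number need not come from 1 mouse, levels were not compared between treatments within a genotype.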

How the data were processed

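The members and gene lists were chosen with earlier results of these data known. RNA-seq was run on 15 libraries. The authors aligned reads with TopHat2 2.0.12 and SAMtools 0.1.19 (mm10/GRCm38), counted them per gene with HTSeq on GENCODE M2 (Ensembl 73), removed genes under 0.5 CPM and scaled the rest by edgeR. Deposited values are a signal, the authors' normalized CPM, scaled in each table separately and rounded to 0.1. Whole reads could not be recovered, so depth is unknown and no count test was run. The low values of many members lie near the rounding step.

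Limma 3.58.1 (R 4.3.3; lmFit, eBayes with trend) compared genotypes per table on log2(value + 1) over all genes, and p was adjusted by Benjamini-Hochberg, with 0.05 as the threshold; a fold on this scale understates the change of low genes. The interaction used the genes in both tables. Constant genes and the Trbc1 share were tested by two-sided exact permutation tests (scipy 1.17.1, the smaller tail doubled). V shares were described for Trbv or Trav sums of at least 20. Genes were named as follows: constant genes, leading V and J genes of each library, members past the threshold or the 2 lowest p per direction, the 2 lowest p of each list, CD3 chains, coreceptors and recombinase genes. Of each list's 2, those with the lower p are given. Traj2, Trbv16, Eomes, Ncr1 and the Tcrg genes were chosen after their values were seen. Positions and sequences are from GENCODE M21 (GRCm38). Nothing in the labels says that replicates came from separate mice, so p-values measure only the spread between these libraries. The fits were tested on simulated data in which 200 genes of higher value were changed by a log2 difference of 3, with the spread capped. In DMSO, in ibrutinib and for the interaction, 95%, 99.5% and 85% of them were recovered. False calls made up 5.47%, 9.13% and 9.09% of the called genes. Many members have lower values than the changed genes, and the simulation does not cover them. Alternatives were other pseudocounts, a filter on low values, quantile normalization, a replicate block, sample quality weights, each library left out and the 3 low-immunoglobulin libraries left out. Values per length, V genes in both tables only, the absolute form of the permutation p the overlap counts without libraries and the Trbc1 share within same-numbered pairs were added after seeing the data.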

Additional observations from a re-analysis of the deposited data

Results flagged for a closer look

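Of 34 groups of 4 or 5 libraries examined, 7 held a library whose gap to its neighbor was large for its group (Dixon's test, 95% level). In each, Eμ-TCL1;p53R172H/+ ibrutinib replicate 1 was highest. Chance gives about 1 in 20 for independent groups, but these 7 are linked values of 1 library. Trbv17 and Trav9-4 were also named because they led in that library, so the 7 are only a description. Trbc1 was 234.2 there against 24.7 to 54.7 in the other 3 libraries of the group, Trbv17 245.7 against 3.3 to 25.4, and Trbv5 37.5 against 3.2 to 8.1. Trav9-4 was 11.5 against 0.4 to 1.9 and Trgv2 12.2 against 0.2 to 0.4. The Trbc1 percent of Trbc1 plus Trbc2 was 74.87 against 23.87 to 29.84, and the largest Trbv share was 84.38% against 12.33% to 21.01%. In DMSO, where 2 libraries are alike in these measures, none was far from all others.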

How the results depend on the processing

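Sample quality weights gave 1 called member in DMSO (Trbv31), 0.99% of members against 4.88% of all genes, and 3 in ibrutinib (Traj24, Traj12 and Traj2), 2.31% against 0.17%. With each library left out, called members were 0 in DMSO, 0 to 1 in ibrutinib (Traj12, without Eμ-TCL1 ibrutinib replicate 1, where 0.146% of all genes were called) and 0 for the interaction. The other pseudocounts, the filter, quantile normalization and the 3 low-immunoglobulin libraries left out gave 0 in all 3 fits. The Trac and Trbc2 differences in DMSO were -3.50 and -6.43 without those 3 libraries. The Trbc1 share between treatments in Eμ-TCL1 ran from -2.70 to 4.27 with 1 library left out (-1.13 and -0.06 without Eμ-TCL1 DMSO replicates 3 and 4, -2.70 without ibrutinib replicate 1). The causes were not tested. A V sum of at least 5 or 100 in place of 20 let 15 or 4 libraries in for beta (9 at 20) and 8 or 0 for alpha (4 at 20). The deviations of same-numbered libraries correlated at 0.05 to 0.25 between genotypes in DMSO and at -0.17 to -0.05 in ibrutinib. Across treatments they correlated at 0.81 and 0.84 for Eμ-TCL1 replicates 3 and 4 and at 0.78, 0.72 and 0.73 for Eμ-TCL1;p53R172H/+ replicates 1, 4 and 5, but at -0.10 for its replicate 3. Libraries of unlike numbers also correlated, at 0.891 for Eμ-TCL1 DMSO replicate 2 and ibrutinib replicate 1. For Eμ-TCL1;p53R172H/+ DMSO replicate 3 and ibrutinib replicate 5 the correlation was 0.669. Since not every same-numbered pair was over 0.1, the numbers were not taken to pair the libraries. Libraries of the 2 treatments may still share mice, which was not tested. The replicate block gave 0 called members in each fit, with 0, 54 and 8 at an unadjusted p under 0.05 (0%, 41.5% and 8.08% of members against 5.89%, 9.07% and 5.05% of all genes) in DMSO, in ibrutinib and for the interaction. Within same-numbered pairs the Trbc1 share differed between treatments by 0.54 and -6.59 points in Eμ-TCL1 and Eμ-TCL1;p53R172H/+. Depth and the rounding to 0.1 limit what low segments can show.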
